A study of Mus musculus with 8 samples.

Results

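The block of chromosome 12 described here runs over 5.17 Mb around Asb2, from chr12:98215409 to chr12:103390393 of the mouse build GRCm38. Its members are the 620 regions of open chromatin that lie wholly between those positions, of 6914 on chromosome 12 and 160978 in all. The edges were set from the fold changes of these same data, so the values of the block are given as a description and no test was made on them. They come from ATAC-seq, in which a transposase cuts and tags accessible DNA. The study asked how accessibility in leukemic cells with low PU.1 differs from that in non-leukemic ones.

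Libraries were made from 8 sorted marrow samples of cKit-positive cells without lymphoid or erythroid markers, the fraction that holds hematopoietic stem and progenitor cells (HSPC). The 4 labelled acute myeloid leukemia (AML) were 2 of genotype URE-delta/+;Tet2+/- and 2 of genotype URE-delta/+;Tet2-/-. The 4 labelled normal were 1 each of URE+/+;Tet2+/+, URE-delta/+;Tet2+/+, URE+/+;Tet2+/- and URE+/+;Tet2-/-. All AML libraries thus share the URE deletion, which removes 1 copy of a distal enhancer of Spi1, the gene for PU.1. The series' design text calls the controls age-matched and states no age, and the sources used here do not say whether a library pools mice. No normal library carried both lesions, so AML and the combined genotype cannot be told apart. Nor do they say which libraries stood on each side of the authors' comparison, and the URE deletion was present in 1 of the normal libraries. The analysis rests on that comparison, which gives 1 log2 fold change per region, leukemic over non-leukemic, with no value per library. The recorded lane was 6 or 7 for the AML libraries and 8 for the normal URE+/+;Tet2+/- and URE+/+;Tet2-/- ones. The normal URE+/+;Tet2+/+ library was on lane 6 and the normal URE-delta/+;Tet2+/+ one on lane 7. The part of lane was not tested.

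PU.1 is an ETS-family transcription factor that binds purine-rich sites and keeps enhancers of myeloid genes open, and Tet2 is a dioxygenase that oxidises 5-methylcytosine in DNA. Asb2 encodes the substrate-recognition subunit of a ubiquitin ligase built on cullin 5 with elongin B, elongin C and a RING protein. The ligase marks its target proteins for destruction, and Asb2 is known as a retinoic acid-induced gene of myeloid leukemia cells. It has more than 1 annotated start, and its isoforms are used in blood and in muscle cells.

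Promoter windows of RefSeq, build GRCm38.p6, show the sequence at the starts on which the results below turn. Each window holds 250 bases before an annotated start and 50 after it, 5′ to 3′ on the strand of the gene. The capitals mark AGGAAG, the core bound by ETS factors such as PU.1, or its reverse complement CTTCCT, and TGTGGT, the core bound by RUNX factors. Asb2 is shown because it holds the lowest region of the chromosome. Its outer start lies on the minus strand at chr12:103355952-103356251 and was overlapped by no region, and its inner start at chr12:103338341-103338640 was overlapped by 1. The Kcnk10 window (chr12:98575078-98575377, minus strand) and the Gm30198 window (chr12:102451483-102451782, plus strand) are the 2 of 82 promoter windows in the block that overlapped a region in the authors' less accessible set.
Asb2, outer start: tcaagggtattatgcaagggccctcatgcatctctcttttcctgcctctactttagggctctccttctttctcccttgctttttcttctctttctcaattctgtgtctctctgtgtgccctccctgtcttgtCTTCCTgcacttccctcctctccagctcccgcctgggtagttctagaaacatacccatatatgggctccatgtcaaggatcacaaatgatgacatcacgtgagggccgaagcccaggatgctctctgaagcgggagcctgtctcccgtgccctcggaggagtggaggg
Asb2, inner start: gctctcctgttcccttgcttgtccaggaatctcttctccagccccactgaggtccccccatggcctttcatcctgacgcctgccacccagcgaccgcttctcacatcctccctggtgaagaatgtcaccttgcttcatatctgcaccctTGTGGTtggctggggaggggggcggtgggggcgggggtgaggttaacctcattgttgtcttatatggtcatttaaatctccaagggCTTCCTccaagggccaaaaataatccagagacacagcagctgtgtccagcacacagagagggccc
Kcnk10, inner start: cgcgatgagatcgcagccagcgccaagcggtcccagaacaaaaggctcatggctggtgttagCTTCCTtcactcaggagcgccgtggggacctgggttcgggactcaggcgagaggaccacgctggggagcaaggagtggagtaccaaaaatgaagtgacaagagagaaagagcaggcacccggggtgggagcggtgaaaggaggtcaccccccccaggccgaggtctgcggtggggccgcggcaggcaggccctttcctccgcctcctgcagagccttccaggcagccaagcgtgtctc
Gm30198: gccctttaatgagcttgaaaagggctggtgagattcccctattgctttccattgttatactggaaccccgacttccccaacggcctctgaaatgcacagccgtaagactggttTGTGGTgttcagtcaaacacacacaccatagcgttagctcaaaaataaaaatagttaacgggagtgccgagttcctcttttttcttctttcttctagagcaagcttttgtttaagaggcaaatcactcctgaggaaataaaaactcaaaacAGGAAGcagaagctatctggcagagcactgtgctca
AGGAAG stood on the opposite strand at base -118 from the outer start of Asb2, at base -15 from its inner start and at base -188 from the inner start of Kcnk10. In Gm30198, a long non-coding RNA gene, it stood on the gene's strand at base 15, with TGTGGT at base -137. TGTGGT also stood at base -101 from the inner start of Asb2.

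Accessibility in the block lay toward lower values in leukemic cells, with -0.33 as the median of the log2 fold changes in the authors' deposited table and quartiles of -1.0 and 0.35. The other 6294 regions of chromosome 12 had a median of 0.10, with quartiles of -0.60 and 0.66, and all 160978 regions one of 0.02. Below 0 stood 392 of the 620 regions, or 63.2%, against 46.2% in the rest of the chromosome and 49.4% overall. These differences were built in by the choice of the block. The curve of the block lies left of both references over its whole middle range in the plot of cumulative shares.

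**Figure D1:**
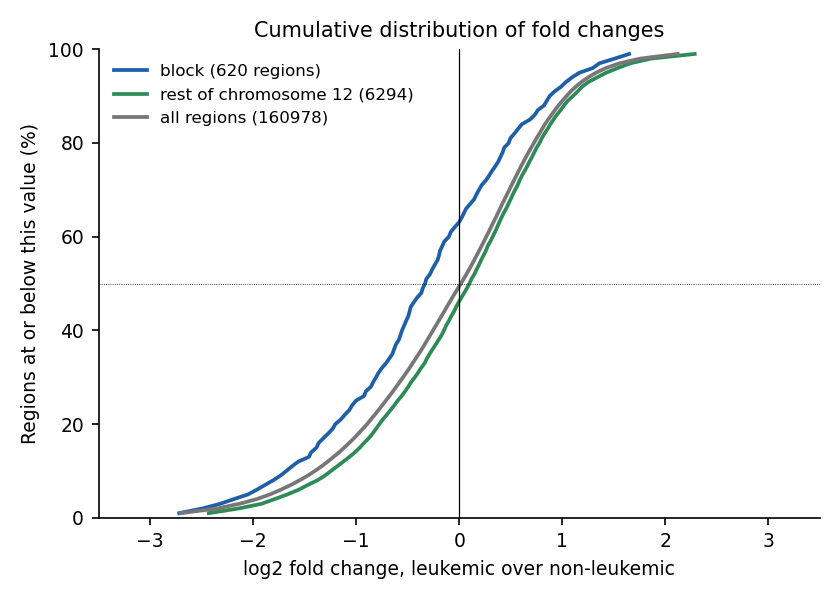
Share of regions (vertical axis, %) at or below each log2 fold change, leukemic over non-leukemic (horizontal axis), for the 620 regions of the block, the other 6294 of chromosome 12 and all 160978. The block crosses the middle line at -0.33, the rest of the chromosome at 0.10 and all regions at 0.02.

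The authors' less accessible set, at an adjusted p under 0.001, held 15 regions of the block, and their more accessible set held 3. That is 2.42% lower and 0.484% higher, beside 1.22% and 1.24% over all regions and 0.524% and 1.60% over the rest of the chromosome. Since the edges were drawn from these folds, the adjusted p-values are description and nothing is read from the shares. At an adjusted p under 0.05, 84 regions stood lower (13.5%) and 35 higher (5.65%), beside 9.21% and 7.98% overall and 7.12% and 8.67% in the rest of the chromosome. The authors' unchanged set, at an adjusted p over 0.9, held 71 of the block's 620 regions, a share close to that of 19123 among all 160978. The 15 regions that fell were spread over 11 genes, with 4 at Asb2, 2 at Gm30198 and 1 each at Galc, Gpr65, Kcnk10, Gm25486, Foxn3, Efcab11, Cpsf2, Slc24a4 and Rin3. The 3 that rose lay at Ccdc88c (2) and near 4930474N09Rik (1).

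Low values were not even along the block. In bins of 500 kb, 9 of the 10 with at least 5 regions had a median below 0 in the authors' deposited table. The lowest were the last bin, which holds Asb2 and Prima1, at -1.04 over 23 regions, and the first, which holds Galc, Gpr65 and Kcnk10, at -0.76 over 50. The bin of Ptpn21, Eml5 and Ttc8 stood at 0.05 over 49 regions, and that of Ccdc88c and Dglucy close to 0 with 42 of 83 regions below 0. The plot along the block shows this order, with the lowest bins at both ends. A stretch of 588 kb between Gm21056 and Tc2n held no region, which leaves the gap in the plot.

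**Figure D2:**
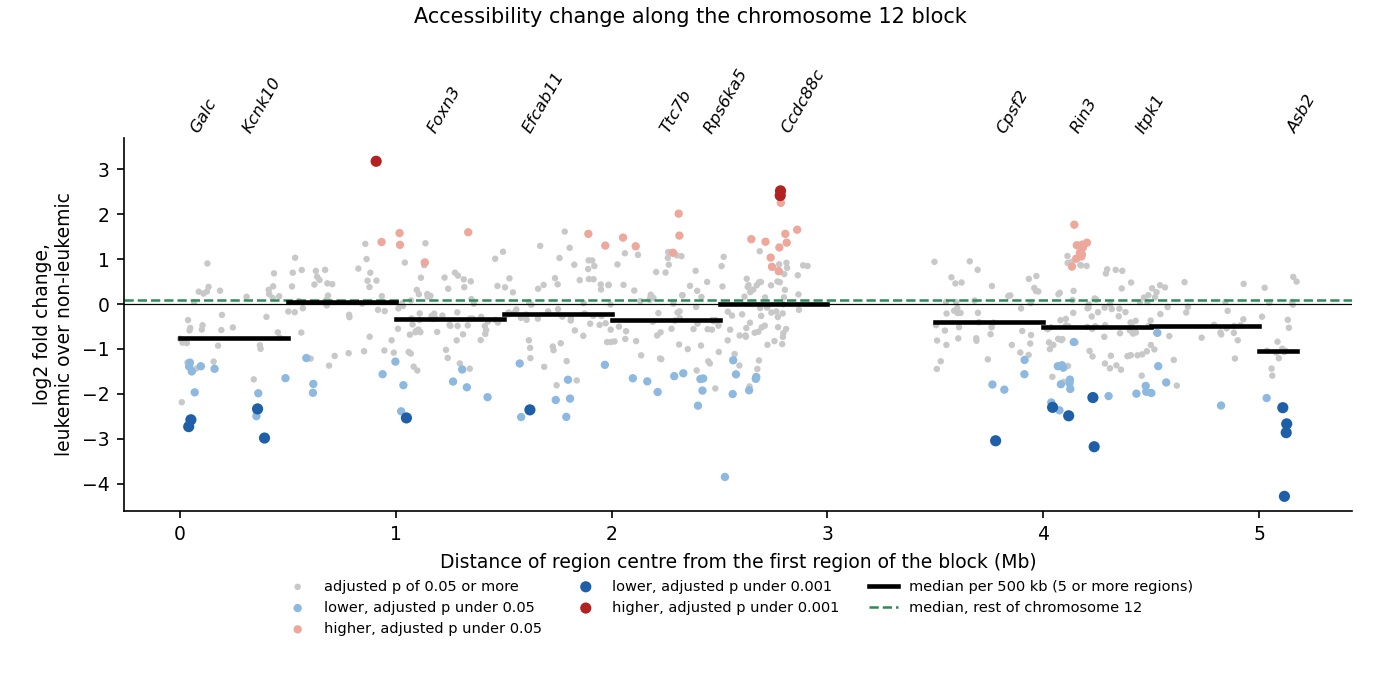
log2 fold change of each of the 620 regions (vertical axis) by the distance of its centre from the start of the block (horizontal axis, Mb), with bars for the median of each 500 kb bin and a dashed line for the rest of chromosome 12. Bars are drawn for bins with at least 5 regions and run from -1.04 at the Asb2 end to 0.05, and the dashed line stands at 0.10.

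At the proximal edge, the first region inside, in Galc at chr12:98215409-98216158, stood at -0.77 in the authors' deposited table. The nearest region outside, at chr12:98213366-98214540, stood at 0.21. At the distal edge, the last region inside, at Otub2, stood at 0.50 (chr12:103388350-103390393), and the nearest outside at -1.24 (chr12:103393184-103394277). Both edges therefore run through a gene, and the order of the values across the distal edge is the reverse of that across the proximal one. The 5 Galc regions left outside had a median of -0.09, from -0.80 to 0.71, against -0.87 for the 11 inside. Windows of the block's length tiled over the rest of chromosome 12 gave 23 medians from -0.22 to 0.54, 7 of them below 0 and 0 below that of the block. With windows of 2 Mb, 44 medians ran from -0.28 to 0.41. The block was chosen from these folds, so its place below the windows is description only.

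Asb2 held the lowest region of the block and 4 of the 15 that fell. All 9 of its regions stood below 0, with a median of -1.07 in the authors' deposited table. In the authors' deposited table, the lowest stood at -4.28 (chr12:103332910-103333212, adjusted p = 9.42e-06), or 19.5-fold lower in leukemic cells. It was the lowest of chromosome 12, and 64 regions of the genome lay lower still. For the other 3 that fell, the authors' deposited table gave -2.86 (chr12:103340906-103341745, adjusted p = 5.21e-05), -2.67 (chr12:103343280-103344018, adjusted p = 5.58e-05) and -2.31 (chr12:103325391-103325774, adjusted p = 0.000300). All 4 lay in the interior of the gene, which spans chr12:103321142-103356001, within a stretch of 18.6 kb that also holds 2 regions that did not pass the threshold.

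The region across the inner start of Asb2, whose window is printed above, had -1.04 by the authors' deposited table (chr12:103338052-103338613, adjusted p = 0.0975), far less low than the regions on either side of it. Nearer the outer start, the regions at chr12:103348564-103348830 and chr12:103353649-103353910 had folds of -0.35 and -0.53 by the authors' deposited table. The remaining 2, toward the far end of the gene, stood at -1.07 and -0.995. The 4 regions that fell were also the more accessible ones, with a log2 average abundance, the authors' measure of read level, of 1.33 to 2.64. The other 5 ran from -1.08 to 0.05. Most regions in the authors' less accessible set were of high abundance, 1694 of 1961 in the highest of 5 equal classes, so this is no trait of Asb2.

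**Figure D3:**
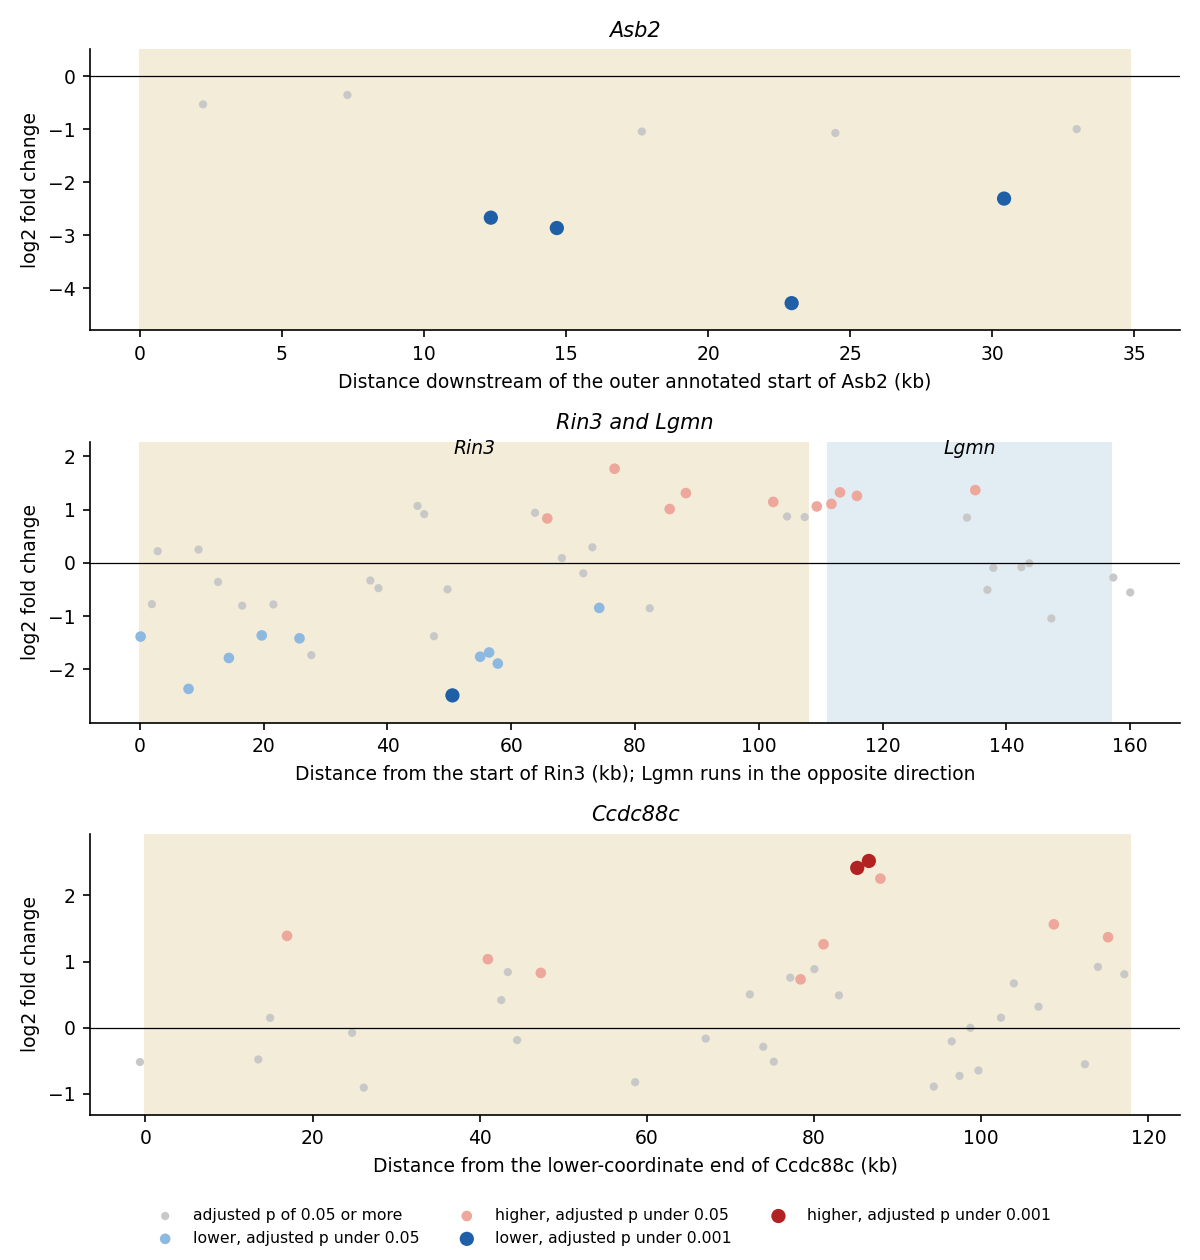
log2 fold change of each region (vertical axis) along Asb2, Rin3 with Lgmn, and Ccdc88c (horizontal axis, kb), with the gene extents shaded and colour for the authors' adjusted p. The 4 Asb2 regions that fell lie inside the gene, the regions of Rin3 pass from below to above 0 along the gene, and the 2 Ccdc88c regions that rose stand next to each other at 2.42 and 2.52.

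Galc, Gpr65 and Kcnk10 make up the other end of the block. Galc encodes galactosylceramidase, a lysosomal enzyme that breaks down galactolipids. Its 11 regions in the block all stood below 0, from -2.73 to -0.36 in the authors' deposited table. The one that fell lies inside the gene at chr12:98255340-98255968, with an adjusted p of 0.000240 by the authors' deposited table. The region across the Galc start, the most abundant of the gene, had -0.59 (adjusted p = 0.109) by the authors' deposited table.

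Gpr65, a proton-sensing G protein-coupled receptor of leukocytes, had its loss upstream of the gene. The region at chr12:98265088-98266466, with its centre 2858 bp from the gene, fell, with -2.58 (adjusted p = 0.000639) by the authors' deposited table. By the authors' deposited table, the region across the start followed at -1.5 (adjusted p = 0.00219), and one at chr12:98283097-98283882 past the other end of the gene at -1.97 (adjusted p = 0.00217). Over the 13 regions given to Gpr65 the median was -0.47, and those farther out reached 0.90.

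Kcnk10 encodes a background potassium channel and had the lowest median of the genes with at least 5 regions, -1.10 over 14 in the authors' deposited table. The losses gathered near its starts, where 5 regions over 21.1 kb stood from -2.50 to -1.68. The one across the inner start, printed above, fell, with -2.33 by the authors' deposited table (chr12:98573905-98575553, adjusted p = 0.000340), and the one across the outer start stood at -1.99 (adjusted p = 0.00353). Beyond it, an intergenic region 7728 bp from the small nuclear RNA gene Gm25486 fell, with -2.98 by the authors' deposited table (chr12:98606687-98606959, adjusted p = 0.000828). Kcnk13, a channel of the same family, had a median of -0.35 over 18 regions in the authors' deposited table. None of its regions was in the less accessible set, and 3 stood lower at an adjusted p under 0.05.

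Foxn3, Efcab11, Ttc7b and Rps6ka5 fill much of the middle of the block, and most of their regions passed neither threshold. Foxn3, a forkhead repressor of transcription, held 64 regions, more than any other gene, with 42 below 0 and a median of -0.34 in the authors' deposited table. Of these 1 fell, with -2.54 by the authors' deposited table (chr12:99264105-99264712, adjusted p = 0.000598). At an adjusted p under 0.05, 7 stood lower and 4 higher, so Foxn3 held values of both signs. Efcab11, an EF-hand protein gene, had a median of -0.21 over 26 regions, and 1 fell, with -2.36 by the authors' deposited table (chr12:99836398-99837052, adjusted p = 0.000737). Its start, shared with that of the DNA repair gene Tdp1, lay under a region with 1.30 by the authors' deposited table (adjusted p = 0.0847), the highest value at any promoter window of the block.

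Ttc7b, part of a complex that places a lipid kinase at the plasma membrane, had 33 regions with a median of -0.16 in the authors' deposited table, and 4 stood lower and 4 higher at an adjusted p under 0.05. Rps6ka5, a kinase of histone H3 and CREB, had 32 regions with a median of -0.46, and 5 stood lower and 0 higher at that threshold. Neither gene had a region in the sets at 0.001. Next to Rps6ka5, a region near the pseudogene Gm2614 had the second lowest value of the block, -3.85 (chr12:100740405-100740589). Its adjusted p of 0.0243 came with a log2 average abundance of -2.33, close to the floor of -3.01 in the authors' deposited table.

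Ccdc88c, which encodes a Dishevelled-binding protein of Wnt signalling, went the other way. Of its 37 regions 22 stood above 0, the median was 0.42 in the authors' deposited table, and 10 stood higher and 0 lower at an adjusted p under 0.05. The 2 that rose lie 1.02 kb apart inside the gene. The values of the authors' deposited table were 2.42 for one (chr12:100996429-100996944, adjusted p = 5.77e-05) and 2.52 for the other (chr12:100997962-100998192, adjusted p = 0.000137). The next region along had 2.26 by the authors' deposited table (chr12:100998912-100999997, adjusted p = 0.00135), and with the 5 before them these made a run of 8 regions over 11.7 kb that all stood above 0. Past the run, the next 5 regions stood below 0. The remaining region that rose, with 3.18 by the authors' deposited table (chr12:99124213-99124392, adjusted p = 6.01e-05), was intergenic, with its centre 36974.5 bp from the long non-coding RNA gene 4930474N09Rik.

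Cpsf2, Slc24a4, Rin3 and Gm30198 carried the losses between the gap and Asb2. Cpsf2, a subunit of the complex that cleaves pre-mRNA before polyadenylation, had 8 regions, and 1 inside the gene fell, at -3.04 (chr12:101994638-101995144, adjusted p = 4.09e-05) in the authors' deposited table. Slc24a4, a potassium-dependent sodium-calcium exchanger, had 19 of 25 regions below 0 and a median of -0.85. Its region at chr12:102258345-102259124 fell, with -2.30 (adjusted p = 0.000978) by the authors' deposited table. Gm30198 had 2 losses by the authors' deposited table, -3.18 across the start printed above (chr12:102451169-102451845, adjusted p = 7.64e-05) and -2.08 before the gene (chr12:102445322-102445746, adjusted p = 0.000344).

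Rin3, an exchange factor that activates RAB5 on early endosomes, had low values near its start and high ones toward its end. Within 60 kb of its start, 18 of 22 regions stood below 0 with a median of -1.08 in the authors' deposited table, 9 of them lower and 0 higher at an adjusted p under 0.05. The one that fell, with -2.49 by the authors' deposited table (chr12:102333186-102333480, adjusted p = 0.000613), lies in that stretch. Beyond 60 kb, 11 of 14 regions stood above 0 with a median of 0.87, and 6 were higher and 1 lower at 0.05. The higher values ran on into Lgmn, the gene of the lysosomal protease legumain, which lies tail to tail with Rin3. The 5 Lgmn regions farthest from its start stood from 0.85 to 1.37, and the 7 nearer to it from -1.04 to -0.01. The point of division was chosen after the values were seen, and 0 regions of the raised stretch passed an adjusted p of 0.001.

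Several regions stood just past the threshold of 0.001, and they were named after their values were seen. By the authors' deposited table, the region at chr12:100776044-100776710 near the long non-coding RNA gene Gm40558 had -2.00 (adjusted p = 0.00115). The region at chr12:99956246-99956804, past the end of Tdp1, had -2.14 in the authors' deposited table (adjusted p = 0.00123), and 5 of the 7 Tdp1 regions stood below 0. The region at chr12:99639190-99641687, near the long non-coding RNA gene Gm19951, had -2.07 by the authors' deposited table (adjusted p = 0.00153). In the higher direction, a Rin3 region at chr12:102359351-102359714 had 1.77 by the authors' deposited table (adjusted p = 0.00121). The third region of Ccdc88c named above, at 2.26, also lay just past the threshold, and the list is not complete in either direction. Unc79, which encodes a subunit of a sodium leak channel complex and lies between Btbd7 and Prima1, had 13 of 15 regions below 0. Its median was -0.54 in the authors' deposited table, with 1 region lower at an adjusted p under 0.05 and 0 at 0.001.

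Over all 65 genes given a region, 46 of them protein coding, 32 had at least 1 region lower at an adjusted p under 0.05 and 11 at least 1 higher, or 49.2% and 16.9%. In the rest of chromosome 12 these shares were 21.1% and 26.2% of 1162 genes, and 25.4% and 25.3% of genes with a region anywhere. Genes of the block held 9.54 regions on average against 5.35 in the rest of the chromosome, and nothing is read from these shares. Of the 38 with at least 5 regions, 29 had a median below 0 in the authors' deposited table. Galc and Asb2 were the only such genes with every region in the block below 0. The lowest medians were those of Kcnk10, Asb2 and Prima1, the last an anchor of acetylcholinesterase with -1.04 over 7 regions. The highest were those of Psmc1, an ATPase subunit of the proteasome, at 0.78 over 5, the long non-coding RNA gene Gm40554 at 0.52 over 9 and Nrde2, an RNA surveillance factor, at 0.44 over 7. The plot by gene shows single regions on both sides of 0 at most genes.

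**Figure D4:**
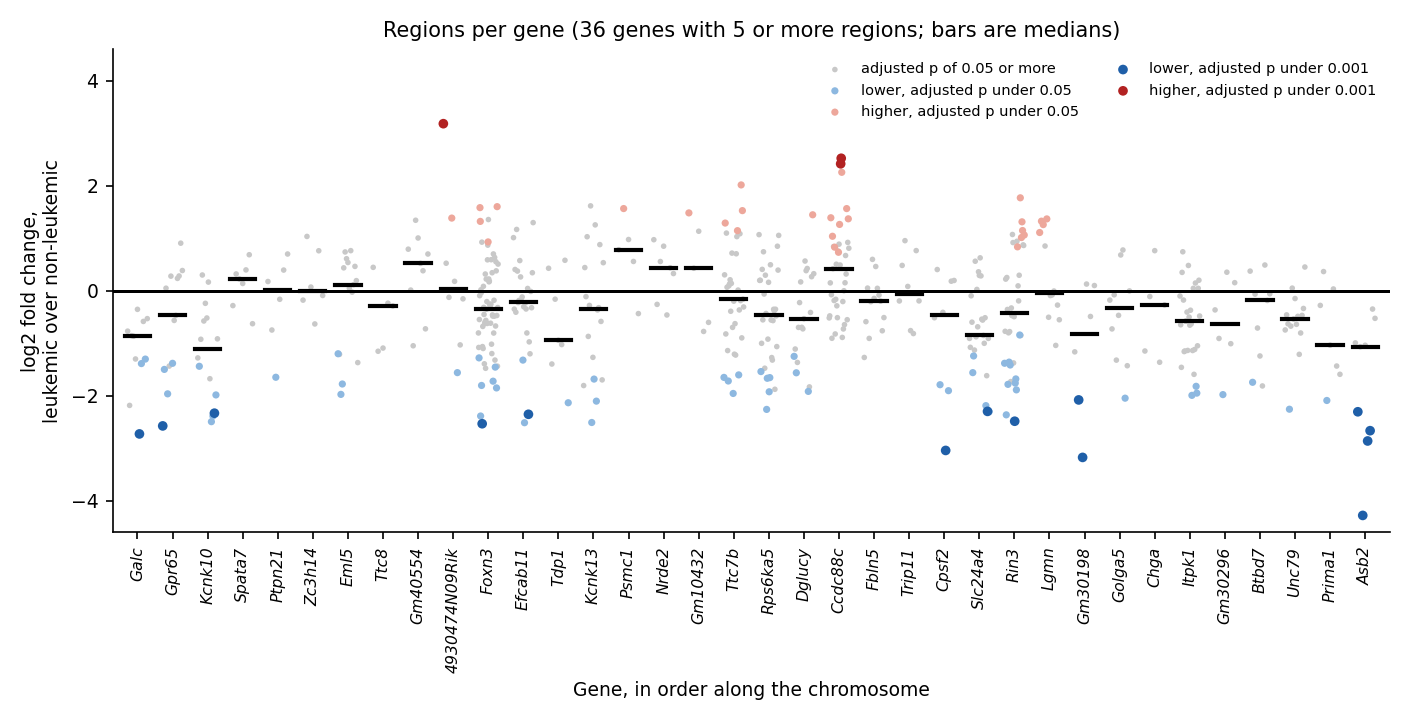
log2 fold change of each region (vertical axis) for 36 of the 38 genes of the block with at least 5 regions, in order along the chromosome (horizontal axis); bars are medians and colours the authors' adjusted p. Medians run from -1.10 at Kcnk10 to 0.78 at Psmc1, with Ccdc88c at 0.42 and Asb2 at -1.07.

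Grouped by what the genes encode, the regions of the ion transport genes Slc24a4, Kcnk10 and Kcnk13 had a median of -0.85 over 57 regions in the authors' deposited table. Of these 2 fell, 0 rose, and 13 stood lower and 0 higher at an adjusted p under 0.05. The lysosomal enzymes Galc and Lgmn had -0.53 over 23 regions, with 3 lower at Galc and 4 higher at Lgmn. In the whole block 13.5% of regions stood lower and 5.65% higher at that threshold, and among all regions 9.21% and 7.98%. Nothing is read from the counts of these groups or of those that follow.

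Kinases and phosphatases (Rps6ka5, Itpk1, Ptpn21 and Ppp4r3a) had a median of -0.48 over 71 regions in the authors' deposited table, with 9 lower and 1 higher at an adjusted p under 0.05. Itpk1, an inositol phosphate kinase, gave 29 of these, with 22 below 0, and Ppp4r3a, a subunit of protein phosphatase 4, gave the higher one. Endosome and Golgi genes (Rin3, Trip11 and Golga5) had -0.26 over 54 regions, with 11 lower and 6 higher, 10 and 6 of them at Rin3. RNA processing and DNA repair genes (Cpsf2, Nrde2, Zc3h14 and Tdp1) had -0.13 over 28, with 4 lower and 0 higher. The ubiquitin and proteasome genes (Asb2, Otub2, Ubr7 and Psmc1) had -0.35 over 19, and all 4 lower ones were at Asb2 while the 1 higher was at Psmc1. The secreted proteins Fbln5, an elastic fibre protein, and Chga, a granule protein, had -0.20 over 18 regions and 0 at that threshold in either direction. All of these medians lie below the 0.02 of all regions, which follows from the choice of the block, and none was tested.

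Some properties of the regions did not enter the choice of the block. The block held 119.8 regions per Mb against 56.3 in the rest of chromosome 12, and regions covered 6.47% of its length against 3.01%. The rest is uneven, and its windows of the block's length held from 50 to 552 regions, where the block held 620. Median width was 329.5 bp against 328 bp, and the median log2 average abundance -0.95 against -1.27 in the authors' deposited table. Of the block's regions 68.7% lay in gene interiors, 20.2% between genes and 11.1% within 1 kb of a gene end, against 52.8%, 33.0% and 14.3%. Of the 15 that fell, 12 lay in a gene interior, 3 between genes and 0 at a gene end. In the rest of the chromosome 23 of 33 lay in a gene interior, 10 between genes and also 0 at a gene end, and 355 of 1961 among all regions lay at a gene end. The fold itself chose the block, so its lower medians by place are description only, with -0.37 against 0.06 in gene interiors, -0.28 against 0.06 between genes and -0.20 against 0.28 at gene ends.

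Abundance moved with the fold inside the block. By 5 equal classes of abundance over all regions, from lowest to highest, the block's medians were -0.06, -0.27, -0.33, -0.61 and -0.47 in the authors' deposited table. In the rest of the chromosome they were 0.15, 0.14, -0.01, 0.06 and 0.07. Of the 15 regions that fell 14 were in the highest class, as were 31 of the 33 in the rest of the chromosome and 1694 of the 1961 among all regions, so this is how the calls fall in general. The gap between the block and the rest of the chromosome thus was smallest in the lowest class, as the plot by abundance shows. The part of abundance in these medians was not tested.

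**Figure D5:**
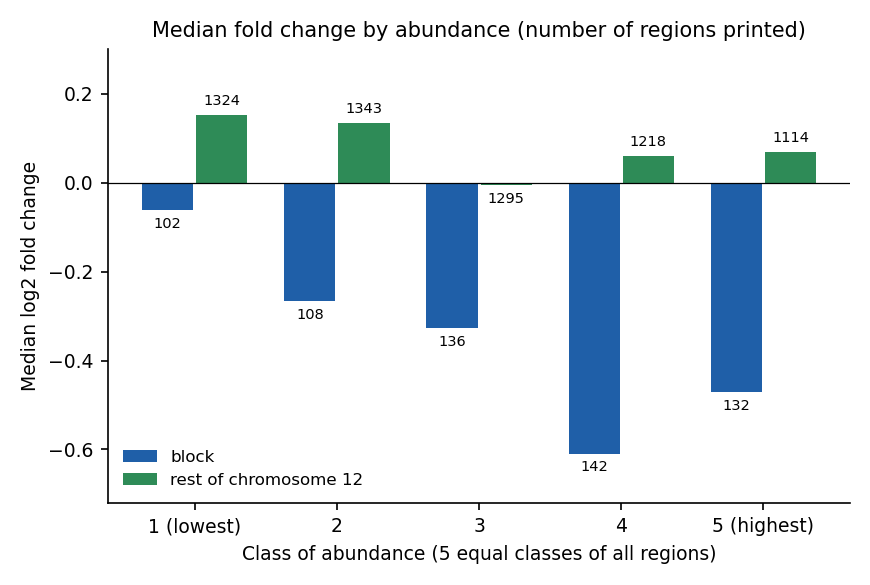
Median log2 fold change (vertical axis, bars from 0) in each of 5 equal classes of the authors' log2 average abundance (horizontal axis), for the block and the rest of chromosome 12, with the number of regions printed at each bar. The block's medians run from -0.06 in the lowest class to -0.61 in class 4, and those of the rest of the chromosome from -0.01 to 0.15.

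RefSeq promoter windows were found for 55 of the 65 genes, and the 82 windows in the block were overlapped in 54 cases, by 41 regions. These 41 had a median of -0.43 in the authors' deposited table, with 73.2% below 0, where the 443 promoter regions of the rest of the chromosome had 0.27 and 36.6%. Over all 12991 promoter regions the values were 0.19 and 40.6%. The folds chose the block, so its lower promoter median is description only. Besides Gpr65, Kcnk10 and Gm30198, the promoter regions of Rin3 and Dglucy were lower by the authors' deposited table, at -1.38 (adjusted p = 0.0117) and -1.25 (adjusted p = 0.00176). The last of the 7 promoter regions lower at an adjusted p under 0.05, across the starts of Moap1 and Tmem251, had -0.64 by the authors' deposited table (adjusted p = 0.0405). At that threshold 0 of the 41 stood higher. In the rest of the chromosome 19 of the 443 stood lower and 49 higher, and over all 12991 promoter regions 1184 and 1165. Nothing is read from these counts. Dglucy, the D-glutamate cyclase gene, and Moap1 and Tmem251 were named after their values were seen. Rps6ka5 stood at 0.85 at its start (adjusted p = 0.0784) in the authors' deposited table. Ccdc88c had no entry.

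Each of 6 motifs was searched on both strands in the 82 windows of the block and in all 32851 windows of the table. The 82 windows belong to 66 genes, and some share sequence, as those of Gm20604 and Gon7 do. A single site can therefore be counted more than once. AGGAAG was found in 33 of the 82, or 40.2%, against 35.4% of all promoters. The longer GAGGAAGT, which contains it and is closer to a PU.1 site, was in 6, or 7.32%, against 3.20%. TGTGGT was in 17, or 20.7%, against 16.8%. The GATA motif AGATAA was in 7, against 11.2% of all promoters, the AP-1 motif TGACTCA in 2, against 5.20%, and the CEBP motif TTGCGCAA in 0, against 0.183%. A match is a run of letters in the window, and neither a match nor its lack was read as binding.

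Past both edges the medians were higher than in the block. The 5 nearest protein-coding genes with a region on the proximal side (Gtf2a1, Ston2, Sel1l, Gm40892 and Flrt2) had a median of 0.03 over 71 regions in the authors' deposited table, with 1 that fell, at Gtf2a1, and 1 that rose, at Ston2. These genes lie between chr12:91555262 and chr12:95785215, away from the edge. By gene, Flrt2 stood at -0.53 over 14 regions, lower than the block, and Gtf2a1 at -0.29 over 7. Ston2 stood at 0.18 over 35, Sel1l at 0.50 over 8 and Gm40892 at 0.55 over 7. On the distal side Ddx24, Ifi27l2a, Ifi27, Ifi27l2b and Ppp4r4 had 0.33 over 10 regions and 0 in either set at 0.001. The serpin A genes that follow, which encode secreted protease inhibitors, had 0.36 over 39 regions of 13 genes. Of these 4 rose, 3 at Serpina12 and 1 at Serpina3n, and 0 fell. At an adjusted p under 0.05, 2 of the serpin A regions stood lower and 7 higher. Over all regions 1.22% fell and 1.24% rose, and 9.21% stood lower and 7.98% higher at 0.05. Nothing is read from the counts of these neighbours. Within 500 kb of the proximal edge, however, 8 of 12 regions stood below 0, with a median of -0.18 and 0 at an adjusted p under 0.05.

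Partners of Asb2 in the ligase, and its relatives, lie on other chromosomes. The subunits Cul5, Elob, Eloc and Rnf7, with Arih2 and Ube2l3, which work with cullin ligases, had 25 regions with a median of -0.06 in the authors' deposited table. None of them was in either set at 0.001, and 1, at Arih2, was lower at an adjusted p under 0.05. Of 17 other Asb family genes, 16 had a region, and the 78 regions had a median of 0.02 in the authors' deposited table. At 0.05, 1 stood lower and 8 higher. Over all regions 9.21% stood lower and 7.98% higher at that threshold, and nothing is read from the counts of partners or relatives. The 1 that rose lay inside Asb11, with 3.09 by the authors' deposited table (chrX:164446168-164448378, adjusted p = 4.22e-05).

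Depth per library is unknown, and the labelled cell type could be checked only through the abundance of regions at gene ends over all libraries together. Kit, Spi1, Mpo, Cd34 and Gata2 reached 1.64 to 3.7 on the log2 abundance scale of the authors' deposited table, and Myb had no region at a gene end. Lymphoid genes (Cd79a, Cd3e, Cd8a and Cd4) ran from -2.04 to 1.41 and erythroid ones (Klf1, Hba-a1 and Alas2) from -2.61 to -0.36, with no region at Hbb-b1. Genes of maturing neutrophils (Ltf, Camp and Mmp8) reached 1.92 to 3.05, and of their 13 regions 7 stood lower and 1 higher at an adjusted p under 0.05. Of the 7, 5 were at Ltf, while Camp had 1 lower and 1 higher. The progenitor genes also moved, with 15 of 58 regions lower and 9 higher at that threshold, but not alike. Of the 15, 9 were at Spi1, whose distal enhancer the URE deletion removes in 1 copy, 5 at Cd34 and 1 at Gata2. Of the 9 higher, 6 were at Myb and 1 each at Spi1, Kit and Mpo. Of the 13 lymphoid and 6 erythroid regions 0 stood lower or higher. Over all regions the shares are 9.21% lower and 7.98% higher. A change in cell makeup and a change in open chromatin per cell cannot be told apart in bulk libraries. The part of cell makeup in the values of the block was not tested.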

How the data were processed

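ATAC-seq libraries from 8 mouse marrow samples were grouped by genotype and disease from their labels. Per the submitters' processing notes, the build was GRCm38 (mm10) and the tools included Genrich 0.6, SAMtools 1.10.2 and Bowtie2 2.4.1. The name of the deposited comparison includes csaw, which counts reads in windows. Its settings, normalization, read filters and any shift for the transposase cut were not given in the sources used here. Each of the 160978 regions has 4 values that were used. The authors deposited a log2 fold change, a log2 value read from its position and range as the average abundance, a p-value and an adjusted p-value. The adjusted p-value in the deposited table equals a Benjamini-Hochberg adjustment over all regions to within 2.39e-15. Coordinates are as deposited, and their base (0 or 1) is unknown. The authors' deposited sets matched the table's regions by sign at an adjusted p under 0.001 and, for the unchanged set, over 0.9.

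The block was taken by its positions. Region centres were given to the nearest gene extent of RefSeq GRCm38.p6 within 100 kb, and ties to protein-coding genes, then to the shortest. Medians, quartiles and counts were computed with Python 3.11.15, numpy 2.4.6 and pandas 2.3.3, and figures with matplotlib 3.10.9. The median and call count of the block were tested on simulated folds and calls, and the motif search on planted motifs. Gene assignment was checked against a full search for a random sample of chromosome 12 regions. Members and lists were chosen with earlier results of these data known. Named were Asb2, genes with a region at an adjusted p under 0.001, the 8 genes with most regions, the 3 highest and 3 lowest medians and single regions, the members of the role lists and genes of the Asb2 ligase and family with a called region. Some members of the gene and marker lists are not reported here, and list values are over the members named. Motifs were searched in promoters, since no genome sequence was used here. No values per library were used, so depth, spread between mice and intervals are unknown, and no test was made. Alternatives varied the threshold, abundance, edges, width weighting, bins, gene assignment, gene-end distance and window length.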

Additional observations from a re-analysis of the deposited data

How the results depend on the processing

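The block's median of -0.33 kept its sign under all 10 alternatives tried, and 9 of them ran from -0.41 to -0.24, among them edges moved by 500 kb either way, width weighting and omission of regions under an adjusted p of 0.05. The other, the top 2 of 5 abundance classes only, gave -0.52, where the rest of the chromosome stood at 0.07. All 10 reuse the folds that chose the block, so the kept sign was built in and is description only. Leaving out the 9 regions of Asb2 gave -0.32 and 11 regions that fell, and leaving out Ccdc88c gave -0.36. Both were chosen after seeing the data. The counts follow the threshold: under 0.0001, 5 regions of the block stood lower (0.806%) and 2 higher (0.323%), where the shares over all regions are 0.252% and 0.387%, and under 0.05, 84 and 35. Bins with a median below 0 were 90% of those of 500 kb, 79.2% at 200 kb and 100% at 1000 kb. Gene ends held 23.9% of the block's regions when taken within 3 kb, against 27.3% in the rest of the chromosome. With protein-coding genes only, Foxn3 took in 81 regions and 2 calls, the second being that next to 4930474N09Rik. No window on chromosome 12 had a lower median than the block at either window length. Since the edges were drawn from these folds, nothing is read from that rank. Of 36 alternatives over 14 results, 29 stayed within a set range of the reported value. For counts the range was 1.5 times the count, and for medians and shares a 95% range over regions or bins. Regions and bins are not replicates, so this range does not measure the spread between mice, and the tally is description only. The cause of the other 7 was not tested beyond the change of threshold, distance or regions that each makes.

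No paired analysis was possible because the analysis used the authors' single fold per region, and leaving out a library in turn was not run for the same reason. Depth is unknown, so no limit of detection is given. The number of non-leukemic libraries behind each fold is unknown. In the 3 lower abundance classes of the block, 0 regions passed 0.001 in the lower direction. In the rest of chromosome 12 these classes also held 0, and among all regions 0, 1 and 6 of the 1961. This is how the calls fall in general and no trait of the block.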
